A study of Mus musculus with 11 samples.

Results

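The subunits of respiratory complex I were read across retinal cell classes and across 4 conditions of a mouse single-cell RNA sequencing series. Genes were taken by symbol, as every Nduf gene of the A, B, C, S or V series with a number, plus Ndufab1 and the mitochondrially encoded mt-Nd genes. The Ndufaf assembly factors were left out. The rule found 44 of the 25311 genes in the file, 37 of them nuclear and 7 mitochondrial, and all 44 carried unique molecular identifier (UMI) counts in every mouse.

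Complex I, the NADH:ubiquinone oxidoreductase, takes electrons from NADH and passes them to ubiquinone in the inner mitochondrial membrane while it pumps protons out of the matrix. It is L-shaped, with a matrix arm that holds the flavin and the iron-sulfur clusters and a membrane arm that holds the proton pumps. Its core subunits carry the chemistry and are encoded in both genomes, and its accessory subunits, all nuclear, serve its assembly and stability. Photoreceptors are among the cells with the highest oxygen use in the body, with mitochondria packed in their inner segments.

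All retinas came from C57BL/6J mice at P10, the end of the period used to model the first phase of retinopathy of prematurity. Control mice (n = 3) received PBS and STZ mice (n = 3) received streptozotocin, a toxin of pancreatic beta cells, by daily injection after birth. The paper's wording on littermates leaves unclear whether STZ and control mice shared litters. It kept STZ-treated litters smaller than untreated ones to even out weight gain, so litter size and treatment cannot be told apart. STZ omega3 mice (n = 2) and STZ omega6 mice (n = 3) were also injected with streptozotocin. Their dams were fed defined feed enriched in omega-3 or omega-6 long-chain polyunsaturated fatty acids, so each diet had a hyperglycaemic retina but no control retina of its own. Each library was one mouse, dissociated with papain and barcoded in droplets by inDrop, so the p-values below measure the spread between mice.

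The libraries held 2563064 to 6516478 UMIs in 20033 cells, which formed 25 clusters. Clusters were assigned by marker genes to rods (9746 cells), cones (1126), bipolar cells (3596), amacrine cells (3287) and Müller glia (1425), and the control cones numbered only 14, 13 and 46 per mouse. Of 18872 distinct barcode sequences, 1157 occurred in more than 1 library. Control and STZ-treated libraries stood apart in other ways: the mitochondrial ribosomal RNA mt-Rnr2 made 282 to 412 UMIs per 10000 in the 3 control retinas and 30.6 to 82.3 in the 8 STZ-treated retinas, and the immediate early gene Fosb made 0.0039 to 0.0089 and 1.16 to 2.31. Treatment and preparation of the libraries cannot be told apart. In whole-retina sums, fewer cells of a type and less RNA per cell cannot be told apart either, and rods made 24.5 to 31.3% of cells in control and 46.5 to 53.9% in STZ mice.

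The sequence before the transcription start is shown for 3 membrane-arm genes named below for the size of their difference between STZ and control mice, Ndufb6 and Ndufc2 in several classes and Ndufa11 in bipolar cells. They were read from RefSeq promoter windows on GRCm38.p6, 250 bases up to the base before the start, on the strand of the gene, and capitals mark matches to the motifs searched. Ndufb6 lies at chr4:40279422-40279671 (minus strand), Ndufc2 at chr7:97399753-97400002 (plus strand) and Ndufa11 at chr17:56717512-56717761 (plus strand).
Ndufb6: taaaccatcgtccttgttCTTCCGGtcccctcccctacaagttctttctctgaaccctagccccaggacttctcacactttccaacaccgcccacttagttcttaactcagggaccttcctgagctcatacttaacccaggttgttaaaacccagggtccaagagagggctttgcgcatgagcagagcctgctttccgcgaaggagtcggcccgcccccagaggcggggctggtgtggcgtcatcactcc
Ndufc2: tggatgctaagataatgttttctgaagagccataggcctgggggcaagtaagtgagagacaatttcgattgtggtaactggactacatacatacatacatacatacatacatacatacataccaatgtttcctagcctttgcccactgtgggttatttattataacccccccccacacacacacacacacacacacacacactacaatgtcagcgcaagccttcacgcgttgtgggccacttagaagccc
Ndufa11: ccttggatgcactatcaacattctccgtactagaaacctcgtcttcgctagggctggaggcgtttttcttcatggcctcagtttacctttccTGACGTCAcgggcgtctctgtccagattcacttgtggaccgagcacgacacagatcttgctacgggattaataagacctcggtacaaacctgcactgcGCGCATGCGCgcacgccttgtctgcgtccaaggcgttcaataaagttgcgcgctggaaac
Ndufb6 held the ETS-family core CCGGAAG, read on the other strand. Ndufa11 held the cyclic AMP response element TGACGTCA and the NRF-1 core GCGCATGC, the latter as overlapping matches on both strands. Ndufc2 held none of the motifs searched.

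Of the 37 nuclear genes, 33 had a promoter window, and 5 motifs were searched on both strands. The NRF-1 core was found in 3 of the 33 (Ndufa6, Ndufa8 and Ndufa11), a share of 9.09% against 2.56% of 27018 genes. The cyclic AMP response element was found in 3 (Ndufa10, Ndufa11 and Ndufb2), 9.09% against 1.77%, and the ETS core in 3 (Ndufb6, Ndufb7 and Ndufs3), 9.09% against 7.83%. The YY1 core AAGATGGC and the estrogen-related receptor site TCAAGGTCA were in 0 of the 33 windows and in 1.82% and 0.422% of all windows. A match in these letters is a description of the window and not of binding.

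In control retinas, nuclear complex I messages made 81.0 ± 4.03 and mt-Nd messages 265 ± 10.0 UMIs per 10000 (mean ± SD, n = 3 mice). Among the classes, control cones had the most nuclear messages, with 105 ± 8.98 per 10000, and Müller glia the fewest, with 61.8 ± 1.68. Bipolar cells (87.4 ± 2.62), rods (87.1 ± 25.2) and amacrine cells (79.4 ± 2.97) lay between, and the range of the rods spanned that of both neighbours. The rod class mixes clusters, as given below, and in the cluster led by rod markers control rods were at 119, 91.5 and 106, so that cones and rods of that cluster did not differ beyond their spread. The mt-Nd messages had another order, from cones (470.4 ± 37.8) through rods (350.0 ± 59.6), Müller glia (279 ± 10.9) and amacrine cells (267 ± 22.2) to bipolar cells (215 ± 5.62), where Müller glia and amacrine cells did not differ beyond their spread. In the cluster led by rod markers control rods had 266, 266 and 273.5 mt-Nd UMIs per 10000, within the range of amacrine cells and under the mean of Müller glia. Classes were built from the same cells, so these levels are a description and were not tested.

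In the 3 STZ retinas the nuclear messages stood at 52.6, 55.4 and 60.4 per 10000, all under the control retinas at 83.9, 76.4 and 82.6. The STZ omega3 retinas stood at 51.2 and 50.04, and the STZ omega6 retinas at 63.6, 55.6 and 60.0, so that all 8 STZ-treated retinas lay under the 3 controls. The mt-Nd messages split the STZ mice: 239, 128 and 149 per 10000 in STZ mice 1, 2 and 3, against 254, 274 and 266 in controls. The summed mt-Nd level of STZ mouse 1 thus stood near the controls, while its nuclear level did not. This did not extend to its mitochondrial ribosomal RNA, with mt-Rnr2 at 77.8 per 10000 against 282 to 412 in controls. In whole retina both diet groups had mt-Nd levels near the controls as well, with 228 and 229 in STZ omega3 and 231, 264 and 285 in STZ omega6 retinas. This did not hold in every class. Every diet mouse lay under every control in cones (181 to 222 against 428 to 500) and in amacrine cells (191 to 224 against 246 to 291). In rods, bipolar cells and Müller glia the diet mice overlapped the controls.

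Within classes, every STZ mouse lay under every control mouse in 7 of 10 pairs of class and genome. Bipolar cells averaged 50.3 ± 3.96 nuclear UMIs per 10000 in STZ mice beside 87.4 ± 2.62 in control, and amacrine cells 42.8 ± 1.80 beside 79.4 ± 2.97, with no test of these sums. Müller glia stood at 38.7 ± 3.03 and cones at 69.2 ± 4.56 in STZ mice. Rods overlapped between the groups: control mouse 2, at 59.2, was under the lowest STZ mouse, at 70.2. In that mouse 38.9% of the cells assigned to rods were in the cluster led by rod markers, against 57.7% and 60.8% in the other controls and 80.6 to 89.4% in STZ mice. In that cluster alone, nuclear messages were 70.9, 76.1 and 80.3 per 10000 in STZ rods, all under the control values above. The mt-Nd messages in it were 257, 142 and 157 in STZ rods, so STZ mouse 1 lay close to the controls there.

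**Figure D1:**
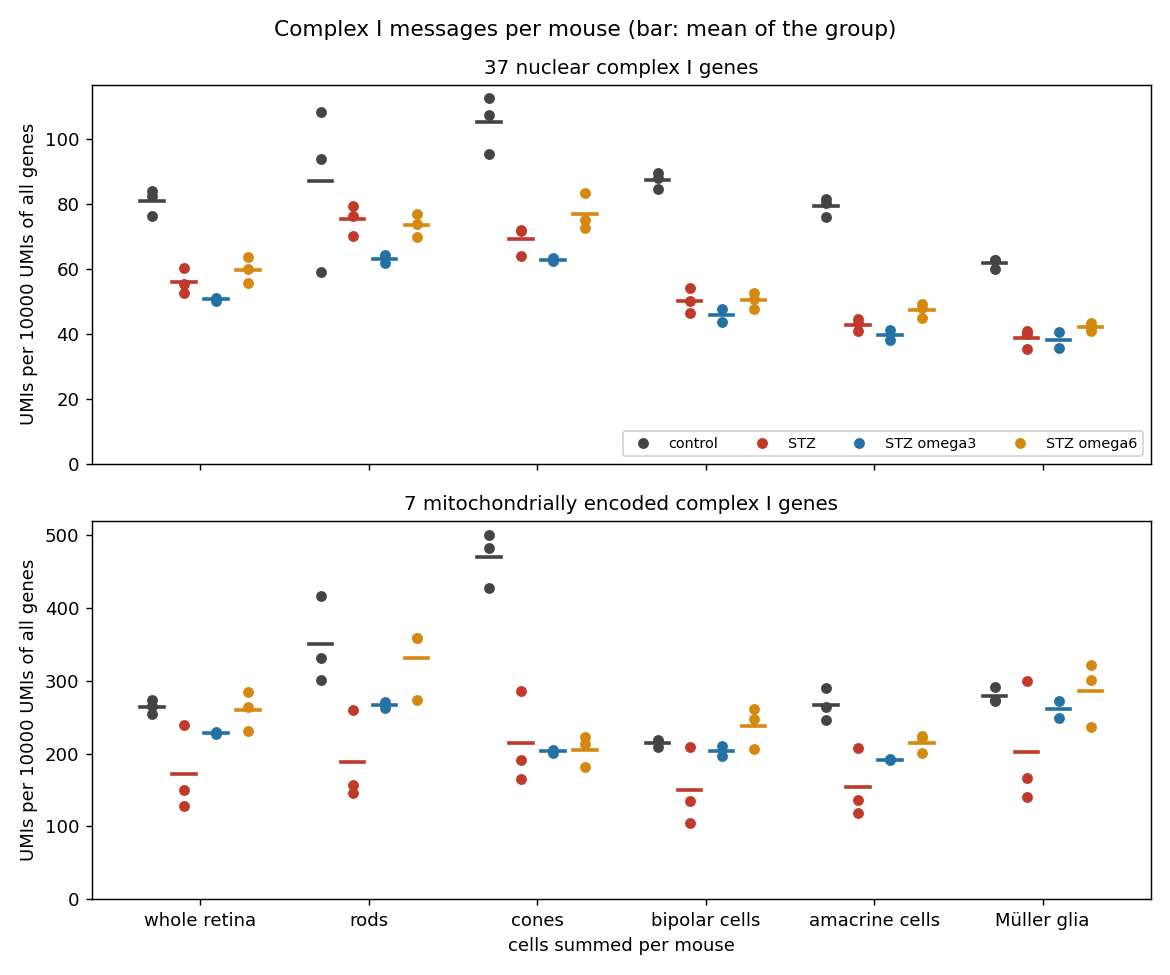
Summed complex I UMIs per 10000 UMIs of all genes (vertical axes) in each of the 11 mice, for whole retina and 5 classes, with the 37 nuclear genes in the upper panel and the 7 mt-Nd genes in the lower. Each point is a mouse, coloured by group, and each bar is the group mean. Nuclear levels in amacrine cells average 79.4 in control and 42.8 in STZ mice without overlap, while the mt-Nd level of STZ mouse 1 sits near the controls at 239 in whole retina.

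Single genes were tested between STZ and control mice with edgeR's quasi-likelihood test on UMIs summed per mouse. Benjamini-Hochberg adjustment ran over all genes tested, and a gene was called at an adjusted p under 0.05. In whole retina 35 of the 37 nuclear subunits were lower in STZ mice and 0 higher, where 23.4% of the 15964 genes tested were called lower. The median log2 fold change over the 37 was -0.83, beside 0.00 over all genes. These folds are relative to a scaling by trimmed means (TMM). Values per mouse below are TMM-scaled CPM, the UMIs of a gene in proportion to a UMI total adjusted by TMM. Such a value is not the gene's share of all UMIs in that mouse or class.

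Among the 19 accessory subunits of the membrane arm, 18 fell, with a median log2 fold change of -0.83. Ndufb6, a small single-pass subunit at the far end of the arm, was at 197, 188 and 222 CPM in control mice and at 59.3, 61.1 and 57.8 in STZ mice (log2 fold change -1.77, SE 0.12, adjusted p = 2.7e-06, edgeR quasi-likelihood test). Ndufc2 was at 506, 556 and 505 in control and 153, 172 and 189 in STZ mice (-1.61, SE 0.12, adjusted p = 4.37e-06). For both genes the highest STZ mouse was under the lowest control mouse, which the choice of named genes required. The share of all genes without overlap was not counted. Ndufa13, also known as GRIM-19 and needed for assembly of the complex, was at 201, 173 and 203 in control and 67.7, 71.5 and 69.6 in STZ mice (-1.47, SE 0.12, adjusted p = 7.43e-06). Ndufa10, a membrane-arm subunit on the matrix face, was the exception, with 128, 112 and 151 in control and 110, 116 and 143 in STZ mice (-0.09, SE 0.15, adjusted p = 0.661), and its groups overlapped. It is named after its values were seen, as the exception in its arm, and scaled to total UMIs instead of by TMM its log2 fold change turned to 0.18.

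Of the 7 nuclear core subunits, which carry the flavin and the iron-sulfur clusters, 6 fell, with a median log2 fold change of -0.70. Ndufs8, which holds a pair of the iron-sulfur clusters, had the largest difference of the 7, from 105, 82.4 and 93.1 CPM in control to 35.7, 39.1 and 43.3 in STZ mice (-1.25, SE 0.15, adjusted p = 5.43e-05). Ndufs7, which holds the last iron-sulfur cluster before ubiquinone, was called as well, with a log2 fold change of -1.01 (adjusted p = 0.000102, edgeR quasi-likelihood test).

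All 9 accessory subunits of the matrix arm fell, with a median log2 fold change of -1.04. Their fold changes ran from -1.25 for Ndufa9, at the joint of the arms, and -1.22 for Ndufs4, whose loss causes Leigh syndrome, to -0.53 for Ndufa6. Ndufab1, the mitochondrial acyl carrier protein, sits in both arms and also serves fatty acid and lipoic acid synthesis. It was at 366, 323 and 343 CPM in control and 144, 142 and 146 in STZ mice (-1.26, SE 0.11, adjusted p = 9.15e-06). Ndufa4, first counted with complex I and later assigned to complex IV, fell less, from 764, 628 and 742 to 521, 537 and 609.9 (-0.36, SE 0.12, adjusted p = 0.0311).

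The 7 mitochondrially encoded core subunits form the proton-pumping membrane domain, and 6 of them fell in whole retina (median log2 fold change -0.87). mt-Nd4, from a gene at chrM:10167-11544, was at 9581, 10896 and 10973 CPM in control and 7180, 3048 and 3791 in STZ mice (-1.17, SE 0.26, adjusted p = 0.00367). mt-Nd4l, at chrM:9877-10173, was at 445, 480.5 and 482 in control and 233, 174 and 193 in STZ mice (-1.23, SE 0.13, adjusted p = 2.61e-05). These genes overlap by a few bases, so reads there could be counted for either. mt-Nd1 was at 7822, 8517 and 8561 in control and 6336, 3455 and 3879 in STZ mice (-0.87, SE 0.21, adjusted p = 0.00539). mt-Nd2 (-0.92, adjusted p = 0.00509), mt-Nd3 (-0.82, adjusted p = 0.00711) and mt-Nd5 (-0.58, adjusted p = 0.00538) were also called by the edgeR test. In each of these 6 genes STZ mouse 1 was the highest of the STZ mice and still under the lowest control.

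mt-Nd6 is the one subunit of the complex read from the other strand of the mitochondrial genome, at chrM:13552-14070, where its end overlaps that of mt-Nd5. It was at 3658, 3541 and 3364 CPM in control and 4131, 2019 and 2486 in STZ mice (-0.29, SE 0.22, adjusted p = 0.294). STZ mouse 1 lay above and the other STZ mice below the controls. The use of strand in counting is not given in the sources used here, so reads of mt-Nd6 and of transcripts from the opposite strand cannot be told apart. Without STZ mouse 1, all 7 mt-Nd genes were called lower.

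In bipolar cells, interneurons that carry photoreceptor signals inward, 35 of 37 nuclear subunits fell and 0 rose (median log2 fold change -1.20, all genes 0.02), where 23.9% of 10019 genes were called lower. Ndufb6 was at 228, 224 and 261 CPM in control and 39.6, 52.5 and 45.2 in STZ bipolar cells (-2.38, SE 0.19, adjusted p = 5.26e-07). Ndufa11, which helps hold the membrane arm together, was at 269, 287 and 314 in control and 80.7, 73.5 and 85.0 in STZ mice (-1.86, SE 0.16, adjusted p = 1.26e-06). Ndufa13 had a log2 fold change of -1.77 (SE 0.20, adjusted p = 1.03e-05). The 2 nuclear genes without a call were Ndufa10 (-0.37) and Ndufa3 (-0.41). Of the mt-Nd genes 6 of 7 fell, and mt-Nd6 (-0.22) was not called.

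In amacrine cells, the inhibitory interneurons, all 37 nuclear subunits and all 7 mt-Nd genes fell (medians -1.20 and -1.13, all genes 0.02), where 20.5% of 11315 genes were called lower. Ndufb6 was at 223, 220.3 and 256 CPM in control and 57.1, 70.5 and 48.0 in STZ mice (-1.99, SE 0.17, adjusted p = 2.49e-06). Ndufs8 was at 117.1, 94.7 and 112 in control and 28.0, 25.9 and 35.4 in STZ mice (-1.85, SE 0.21, adjusted p = 2.12e-05). Ndufc2 was at 609, 643 and 649.8 in control and 166, 181 and 193 in STZ mice (-1.81, SE 0.12, adjusted p = 4.37e-07). In each of the 3 genes the STZ mice were under the controls without overlap, as the choice of named genes required.

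In rods, 18 of 37 nuclear subunits fell and 0 rose (median log2 fold change -0.63, all genes 0.02), where 20.4% of 7899 genes were called lower. Ndufab1 was at 999, 454 and 563 CPM in control and 195, 212 and 159 in STZ rods (-1.84, SE 0.27, adjusted p = 8.53e-05). Ndufc2 was at 425, 254 and 359.6 in control and 104, 114 and 130.2 in STZ rods (-1.58, SE 0.24, adjusted p = 8.84e-05). Control mouse 2 was the lowest of the controls in both genes. Ndufa13 had a log2 fold change of -1.44 (SE 0.27, adjusted p = 0.000573). Of the mt-Nd genes 5 of 7 fell (median -1.33). In the cluster led by rod markers alone, 21 nuclear genes (median -0.72) and 5 mt-Nd genes (median -0.73) were called lower, so the mt-Nd differences were smaller there. The rod count depended on single libraries: 28 nuclear genes were called without control mouse 2, 12 without control mouse 1, 9 without control mouse 3, and 10, 10 and 9 without STZ mouse 1, 2 or 3. The summed rod markers, all 10 present, were 106 to 182 per 10000 in control and 282 to 398 in STZ rods, and their part in these differences was not tested.

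In cones, 14 of 37 nuclear subunits fell and 0 rose (median log2 fold change -0.80, all genes 0.10), where 7.9% of 3125 genes were called lower. Ndufb6 was at 321, 378 and 524 CPM in control and 127, 82.3 and 56.1 in STZ cones (-2.29, SE 0.39, adjusted p = 0.000394), on 9, 11 and 34 control UMIs. Ndufc2 had a log2 fold change of -1.63 (SE 0.27, adjusted p = 0.000264), and the matrix-arm subunit Ndufa9 of -1.60 (SE 0.46, adjusted p = 0.0195) on 3, 7 and 16 control UMIs. All 7 mt-Nd genes fell (median -1.20), with 4 called without STZ mouse 3 and 5 without STZ mouse 2. The nuclear count was 9 without control mouse 1, 6 without control mouse 3, and 7, 6 and 5 without STZ mouse 1, 2 or 3. Rod markers summed to 27.6 to 42.3 per 10000 in control and 102 to 148 in STZ cones while the 9 cone markers went from 272 to 322 down to 166 to 196, and the part of this in the subunit differences was not tested.

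In Müller glia, the radial glia of the retina, 13 of 36 nuclear subunits tested fell and 0 rose (median log2 fold change -0.78, all genes 0.00), where 5.03% of 4855 genes were called lower. Ndufa9 had too few counts to be tested. The core subunit Ndufs7 was at 113, 139 and 158 CPM in control and 22.7, 45.0 and 39.6 in STZ glia (-1.96, SE 0.37, adjusted p = 0.00417). Ndufb6 was at 151, 247 and 142 in control and 34.0, 28.2 and 70.4 in STZ glia (-1.95, SE 0.39, adjusted p = 0.00562). Ndufb4, a membrane-arm subunit, had a log2 fold change of -1.58 (SE 0.31, adjusted p = 0.00454). Only mt-Nd4l of the 7 mt-Nd genes was called lower (median -0.53). Without STZ mouse 1, whose glia had 300.3 mt-Nd UMIs per 10000 beside 273 to 292 in controls, all 7 were called. The nuclear count was 8 without control mouse 1 or 2 and 6 without STZ mouse 1 or 2.

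Counted over the 5 classes, 10 nuclear genes fell in all 5: Ndufa11, Ndufa12, Ndufa13, Ndufb4, Ndufb6, Ndufc1, Ndufc2, Ndufs4, Ndufs6 and Ndufs7. Another 3 fell in 4 classes, 9 in 3, 13 in 2 and 2 in 1. mt-Nd4l fell in all 5 classes and mt-Nd6 in 2. How many of all genes fell in as many classes was not counted, so these counts have no background share beside them. Counts were lowest in cones and Müller glia, and these numbers are no test of a difference between classes.

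**Figure D2:**
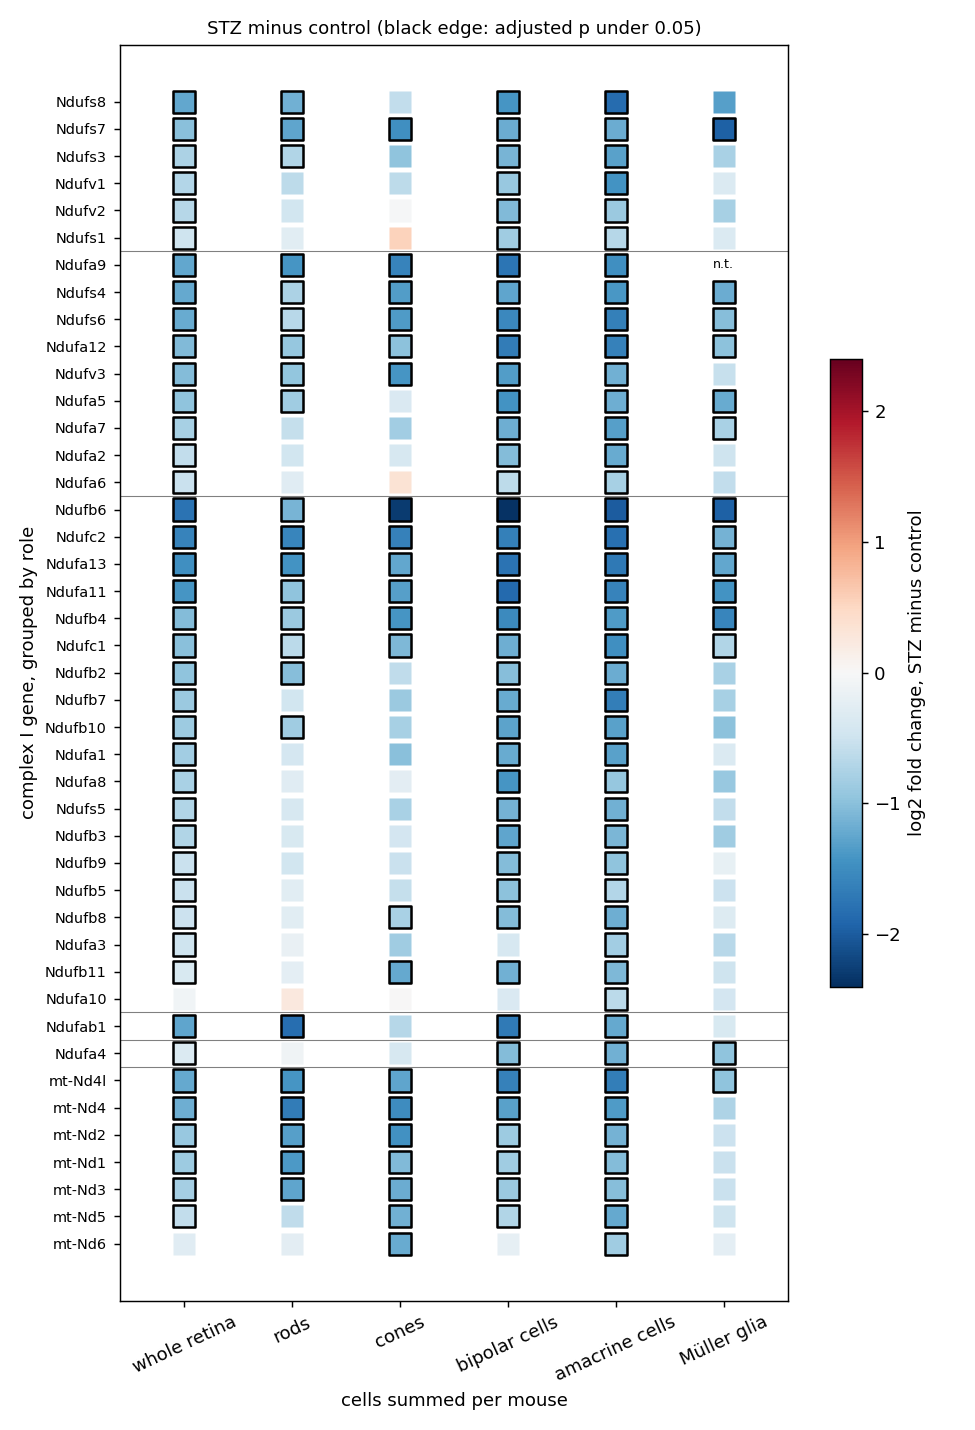
Log2 fold change, STZ minus control (colour scale, blue for lower in STZ mice), of complex I genes (vertical axis, lines between roles) in whole retina and the 5 classes (horizontal axis). A black edge marks an adjusted p under 0.05 and n.t. the gene not tested, and Ndufb6 is edged in every column, with -2.38 in bipolar cells as the lowest value.

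Scaling moved the level of all these values. With counts scaled to total UMIs, an alternative chosen after seeing the data, the median gene in the STZ comparison stood at 0.26 in whole retina, 0.16 in Müller glia, 0.35 in rods, 0.37 in amacrine cells, 0.42 in cones and 0.45 in bipolar cells. Under it 27, 8, 9, 33, 8 and 31 nuclear subunits were called lower, in that order, and 1 was called higher in whole retina. The mt-Nd genes called lower in bipolar cells went from 6 to 3. The share of all calls that were higher went from 51.4 to 70.6% in whole retina, from 53.6 to 72.9% in Müller glia, from 47.0 to 67.6% in rods, from 47.1 to 74.3% in amacrine cells, from 57.9 to 82.7% in cones and from 47.1 to 74.7% in bipolar cells. Relative to the median gene the nuclear subunits were nearly where TMM put them, at -0.83 in whole retina, -0.79 in Müller glia, -0.65 in rods, -1.22 in amacrine cells, -0.91 in cones and -1.22 in bipolar cells. The sign turned for 10 of 44 members in rods, 3 in bipolar cells, 2 in cones, 1 in whole retina, 1 in Müller glia and 0 in amacrine cells. Ndufa4 in rods went from -0.11 to 0.23, and mt-Nd6 from -0.26 to 0.07 in rods and from -0.22 to 0.19 in bipolar cells.

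Other genes of the same machinery were read in the same fits. Of 20 listed assembly factors, which build the complex without staying in it, 19 were tested in whole retina, where 2 rose and 5 fell (median log2 fold change -0.32). In amacrine cells 5 of 18 fell (-0.59) and in bipolar cells 2 of 18 (-0.34). These counts stand beside the shares of 23.4%, 20.5% and 23.9% of all genes called lower, given above. Of the nuclear subunits of complexes II to V, 38 were tested and 32 fell in whole retina (median -0.76), with 35 in bipolar cells (-1.11), 36 in amacrine cells (-1.15), 16 in rods (-0.63), 21 in cones (-0.83) and 15 in Müller glia (-0.58). The 6 other mitochondrially encoded messages fell in 5 cases in whole retina, in 6 in rods, bipolar cells and amacrine cells, in 4 in cones and in 0 in Müller glia. No difference between these lists and the complex I subunits was tested.

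The STZ effect itself was compared among the 5 classes with an edgeR quasi-likelihood test of the class-by-group terms. It differed for 9 of the 44 members, where 10.5% of 12404 genes were called. mt-Nd6 had the smallest p (adjusted p = 0.000512), with log2 fold changes of -1.20 in cones and -0.85 in amacrine cells, beside -0.26 in rods, -0.22 in bipolar cells and -0.24 in Müller glia. Ndufa4 (adjusted p = 0.00129) had -1.16 in amacrine cells, -1.04 in bipolar cells and -0.96 in Müller glia, beside -0.11 in rods and -0.40 in cones. Its amacrine values went from 691, 678 and 638 CPM in control to 294, 295 and 310.0 in STZ mice, whereas rods had 1391, 600.4 and 1232 in control and 934, 1024 and 1048 in STZ mice. The rod groups overlapped through control mouse 2 alone, and the rod log2 fold change was -0.37 (SE 0.15, adjusted p = 0.063) without it and -0.25 in the cluster led by rod markers. mt-Nd1 (adjusted p = 0.00346) had -1.38 in rods, -1.07 in cones, -1.05 in amacrine cells, -0.86 in bipolar cells and -0.54 in Müller glia. The number of members called was 6 without control mouse 2, 5 without STZ mouse 1, 6 without STZ mouse 2 and 3 without STZ mouse 3. mt-Nd6 was called in all 15 alternatives run, Ndufa4 in 14 and mt-Nd1 in 8. With rods taken from the cluster led by rod markers alone, the adjusted p was 4.12e-07 for mt-Nd6, whose rod log2 fold change turned to 0.31, 0.00438 for Ndufa4 and 0.19 for mt-Nd1, which was no longer called.

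**Figure D3:**
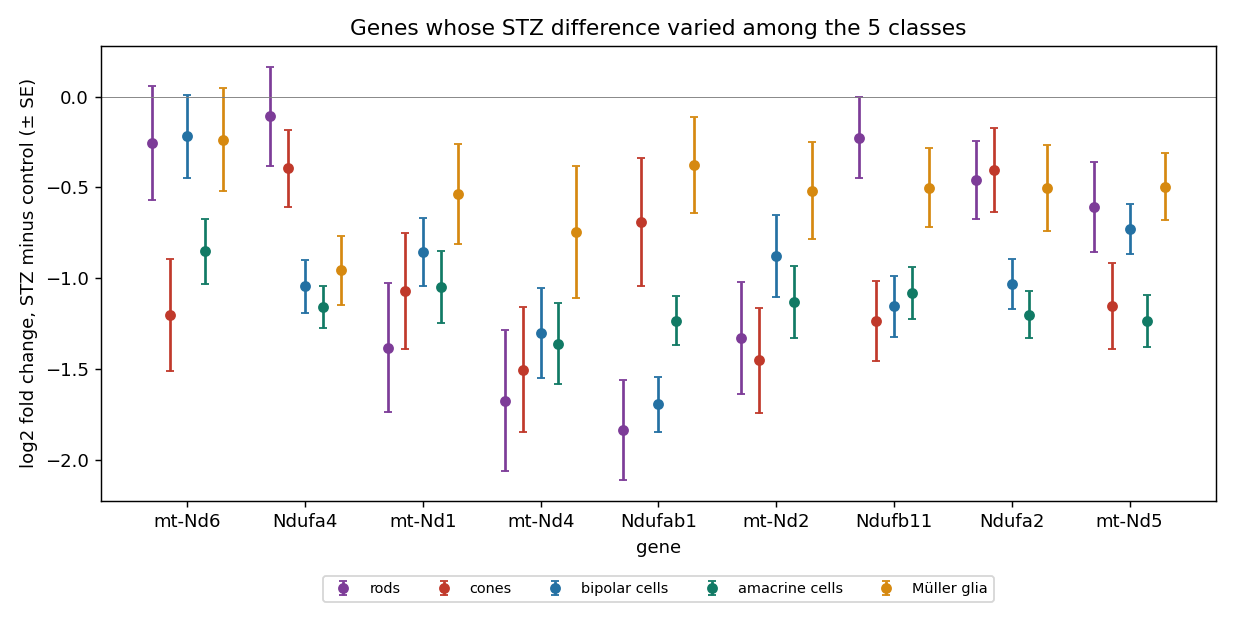
Log2 fold change, STZ minus control (vertical axis), of the 9 genes whose STZ effect differed among classes (horizontal axis), with a coloured point for each of the 5 classes and bars of 1 standard error. Ndufa4 sits at -0.11 in rods and at -1.16 in amacrine cells, and mt-Nd6 is lowest in cones at -1.20.

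Between the diets, STZ omega6 against STZ omega3 mice, 0 of the 44 members were called by the edgeR quasi-likelihood test in whole retina or in any class. Among all genes the share called was 0.0161% in rods, and 0.0% in whole retina, in Müller glia, in amacrine cells, in cones and in bipolar cells. At an unadjusted p under 0.05 there were 18 nuclear subunits in whole retina, 2 in Müller glia, 18 in rods, 12 in amacrine cells, 9 in cones and 3 in bipolar cells, and 2, 1, 5, 3, 1 and 2 mt-Nd genes in the same order. Over all genes that threshold was passed by 1328 of 18821, 283 of 7945, 1370 of 12456, 1298 of 13121, 736 of 9160 and 503 of 11942, again in that order. DESeq2 called 3 members in whole retina (Ndufa4, Ndufc2 and mt-Nd3) and 3 in rods (Ndufa4, mt-Nd1 and mt-Nd3), all higher under omega6. The share of all genes that DESeq2 called is not given here, and the shares above are those of edgeR. These calls therefore do not show a difference particular to complex I. The log2 fold change was above 0 for all 37 nuclear genes in whole retina, rods and amacrine cells, for 34 in cones, 30 in bipolar cells and 28 in Müller glia. Their medians were 0.28, 0.33, 0.31, 0.34, 0.15 and 0.23, beside 0.00, 0.02, 0.01, 0.00, 0.01 and 0.02 over all genes. The share of all genes above 0 was not counted. Genes read in the same mice are not independent, so these sign counts are no test of the diet. Scaled to total UMIs, 36 were above 0 in whole retina, 33 in rods, 34 in amacrine cells, 34 in cones, 27 in bipolar cells and 22 in Müller glia. The cells assigned to cones held more rod-marker than cone-marker UMIs in these mice, 216 to 249 against 91.9 to 106 per 10000 under omega3 and 211 to 273 against 83.7 to 92.9 under omega6, and the part of this in the cone values was not tested.

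Of the mt-Nd genes, mt-Nd3 had the smallest p in all 6 comparisons of the diets. In whole retina it was at 805 and 935 CPM in STZ omega3 mice and at 1274, 1257 and 1211 in STZ omega6 mice (log2 fold change 0.52, SE 0.12, adjusted p = 0.682, edgeR quasi-likelihood test). In rods it was at 865 and 1078 against 1424, 1812 and 1477 (0.69, SE 0.15, adjusted p = 0.303). The cluster led by rod markers held 69.7 and 75.6% of omega3 rods and 60.8, 63.4 and 67.9% of omega6 rods. In it mt-Nd3 had a log2 fold change of 0.67 (adjusted p = 0.314), and the summed mt-Nd messages overlapped, with 257 and 263 per 10000 under omega3 and 249.7, 325 and 358 under omega6. The diets did not overlap for mt-Nd3 in whole retina or in any of the 5 classes. The gene was chosen for its smallest p, which favours this, and no comparison passed the adjustment. The log2 fold change of mt-Nd3 was 0.51 in amacrine cells, 0.50 in bipolar cells, 0.40 in Müller glia and 0.40 in cones, with adjusted p of 0.371, 0.991, 0.994 and 0.597.

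Among nuclear genes Ndufa4 had the smallest p in rods, cones, bipolar cells and amacrine cells. In rods it was at 629 and 673 CPM in STZ omega3 mice and 954, 887 and 1137 in STZ omega6 mice (0.61, SE 0.15, adjusted p = 0.316, edgeR quasi-likelihood test). The log2 fold changes in the other classes were 0.65 in bipolar cells, 0.54 in cones and 0.59 in amacrine cells, with adjusted p of 0.991, 0.537 and 0.324. In whole retina Ndufc2 came first, at 117.2 and 118 against 172, 166 and 192 (0.59, SE 0.13, adjusted p = 0.682). In Müller glia Ndufb4 did, at 76.2 and 73.2 against 92.3, 137 and 142 (0.74, SE 0.30, adjusted p = 0.994). In each of these genes the 3 omega6 mice lay above both omega3 mice, which the choice by smallest p favours. No member's diet effect was called as differing among classes, where 0.0395% of 15202 genes were called, and 3 of 44 members and 683 of all genes had an unadjusted p under 0.05.

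**Figure D4:**
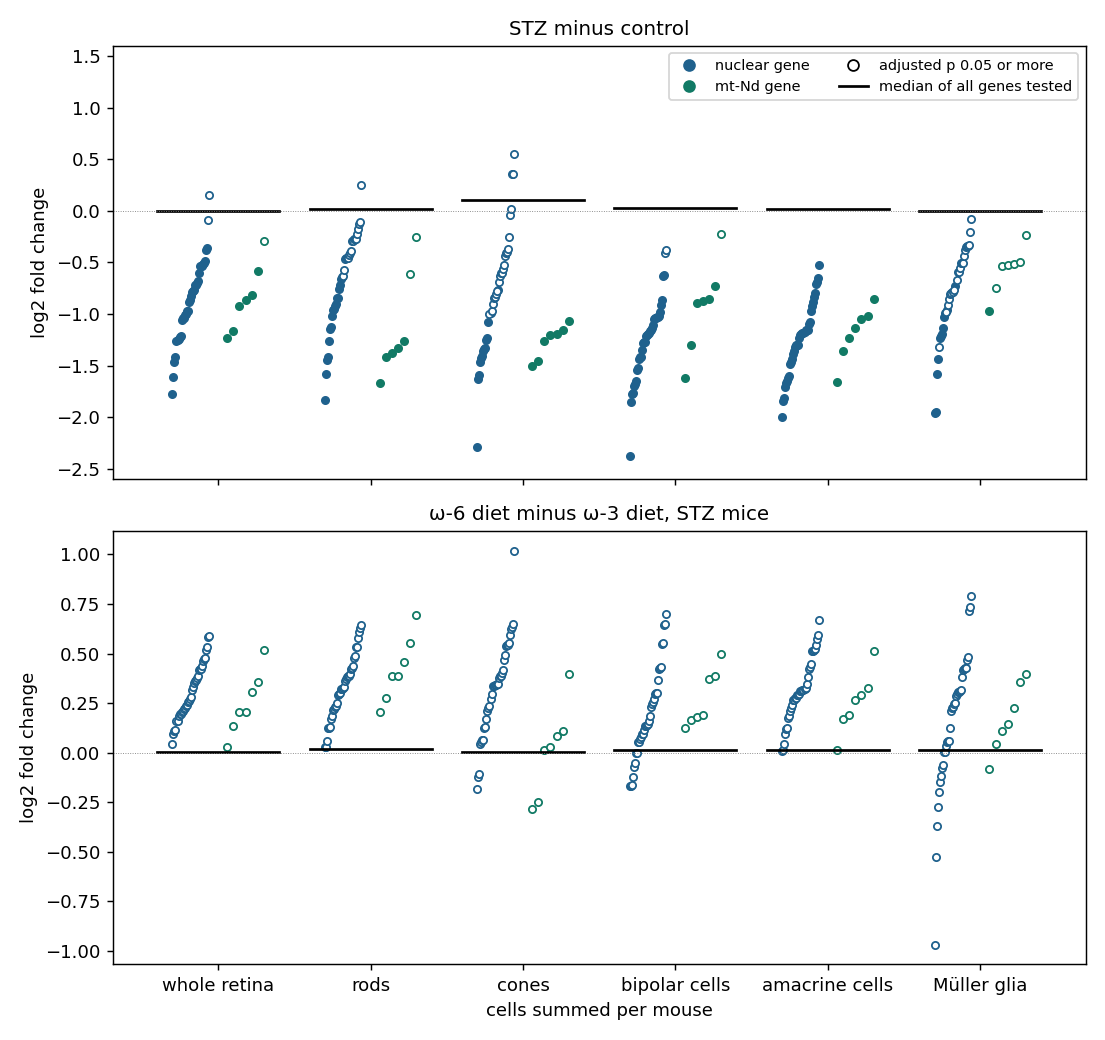
Log2 fold change (vertical axes) of each complex I gene in whole retina and the 5 classes, for STZ minus control in the upper panel and omega6 minus omega3 in the lower, which has a narrower scale. Each point is a gene, blue for nuclear and green for mt-Nd, open where the adjusted p was 0.05 or more, and the black line is the median of all genes tested. The STZ medians of nuclear genes run from -1.20 to -0.63 with many filled points, and the diet medians from 0.15 to 0.34 with open points only.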

How the data were processed

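Retinas of 11 mice were profiled by inDrop. The authors ran bcbio-nextgen with umis and Rapmap on mouse transcripts (GRCm38.p6, mm10) and deposited raw UMI counts per gene and cell, with replicates not pooled and 0 columns left unused. The use of strand is not given in the sources used here.

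Cells with more than 300 genes were kept and clustered with Seurat 5.3.0 (75 principal components, resolution 0.2), and clusters were named from markers. Scrublet marked under 0.5% of cells, too few to have worked, and doublets were not removed. Counts were summed per mouse and class. Each of the comparisons, STZ with control and omega6 with omega3, was fitted apart with edgeR 4.0.16 (filterByExpr, TMM, quasi-likelihood test, Benjamini-Hochberg over all genes tested, adjusted p under 0.05). The step was tested on simulated data. Class differences were tested with a term per mouse. DESeq2 1.42.0, other scalings, no filter, thinning, class rules, a replicate block and leaving out each mouse were the alternatives. Correlations of same-numbered mice (-0.017, 0.102 and 0.145 for STZ) did not settle whether they are pairs, and the main fits treat them as unpaired. Gene coordinates are from GENCODE, promoters from RefSeq.

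Members and lists were chosen with earlier results of these data known. Genes named in the text were, per comparison and class, the 3 called nuclear subunits with the largest difference in each direction whose mice did not overlap, all mt-Nd genes in whole retina, the smallest p per genome between diets, and the 3 smallest p among class differences. Ndufs8, Ndufs7, Ndufa10, Ndufa9, Ndufs4, Ndufa6, Ndufab1 and Ndufa4 in whole retina were added for their role, and Ndufa10 and Ndufa3 in bipolar cells as exceptions, after their values were seen. The pseudogene Ndufab1-ps and the paralog Ndufa4l2 lie outside the rule and may share reads with members. The values of 1 nuclear member, which is kept in the counts, are not reported here.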

Additional observations from a re-analysis of the deposited data

Results flagged for a closer look

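For 9 members the difference between STZ and control mice itself differed among the 5 classes by edgeR's quasi-likelihood test of the class-by-group terms with Benjamini-Hochberg adjustment. Of all 12404 genes in that test, 10.5% were called. The adjusted p was 0.000512 for mt-Nd6, 0.00129 for Ndufa4, 0.00346 for mt-Nd1, 0.00472 for mt-Nd4, 0.00629 for Ndufab1, 0.0115 for mt-Nd2, 0.0235 for Ndufb11, 0.0389 for Ndufa2 and 0.0411 for mt-Nd5. In Ndufab1 the log2 fold change was -1.84 in rods, -1.69 in bipolar cells and -1.23 in amacrine cells, beside -0.69 in cones and -0.38 in Müller glia. STZ mouse 1, whose mt-Nd messages stood near the controls in whole retina but not in cones or amacrine cells, enters every one of these values, and without it 5 members were called. With rods taken from the cluster led by rod markers alone, Ndufa2 (adjusted p = 0.0797), Ndufb11 (0.0818), mt-Nd1 (0.19) and mt-Nd4 (0.0608) were no longer called. Rod marker UMIs were higher in STZ than in control cells of other classes too, such as cones (27.6 to 42.3 against 102 to 148 per 10000), and their part in the class differences was not tested.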

How the results depend on the processing

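No difference named as called turned direction. Fold changes near 0 did, as given above for the scaling to total UMIs and the rod-marker cluster. The whole-retina, bipolar and amacrine counts of nuclear subunits, and the STZ count of mt-Nd genes summed over whole retina and the 5 classes (32, range 28 to 40), stayed within 1.5 times the reported count under every alternative run, though within Müller glia, cones and bipolar cells the mt-Nd counts moved more, as given above. In rods (18 nuclear subunits reported), 5 were called with no filter on low counts, 31 with classes by marker score, 9 scaled to total UMIs and 9 to 28 leaving out each mouse. In cones (14), 4 were called with no filter, 8 with the replicate block, 3 thinned to equal depth, 8 scaled to total UMIs and 5 to 13 leaving out each mouse. In Müller glia (13), 8 were called by DESeq2, thinned or scaled to total UMIs, and 6 to 9 leaving out each mouse. Between diets (0), pairs of nuclear subunit and class called were 3 by DESeq2, 2 with no filter and 1 with the replicate block, and pairs of mt-Nd gene and class 3, 4 and 1, and 0 to 1 leaving out each mouse. Members whose STZ effect differed among classes (9) were 14 with no filter, 5 in cells with more than 500 genes, 4 with classes by marker score, 4 thinned (29 members tested) and 3 to 12 leaving out each mouse. The causes of these changes were not tested. Thinning and leaving out mice lower the counts tested, and the part of this in the changes was not tested either. The scaling to total UMIs was chosen after seeing the data. Shares of all genes called between the diets under the alternatives are not given here. Deviations of same-numbered mice had correlations of -0.017, 0.102 and 0.145 for STZ, beside -0.192 to 0.095 for mice of different numbers. For the diets they were 0.075 and 0.260, but deviations of only 2 omega3 mice mirror each other, so they cannot show pairing. Whether same-numbered mice are pairs is not settled by these values. The replicate block called 35 in whole retina, 14 in Müller glia, 15 in rods, 37 in amacrine cells and 35 in bipolar cells. Depth is lowest in control cones, with 13 to 46 cells a mouse.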
